A study of Homo sapiens with 23 samples.

Results

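This report follows 40 genes of glycolysis and of the response to low oxygen, chosen by gene symbol from the 21463 gene rows measured in PC-3 cells. All 40 have a row. They comprise 22 glycolytic enzymes and transporters, 16 other targets of the hypoxia-inducible factors (HIF) and the genes of 2 HIF alpha subunits, HIF1A and EPAS1. PC-3, the host, is a long-established line of human prostate cancer, grown out of a metastasis to bone. Every group carried a lentiviral TetOne construct in which doxycycline turns on a PARG cDNA joined to the fluorescent protein mClover3 by a cleavable link; PARG is the hydrolase that takes poly(ADP-ribose) off modified proteins.

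The cells were 2 clones of the line, I4 and H6, grown for 72 h with 500 ng/ml doxycycline or without it. Both clones went through experiment N, done at passage 5 and sequenced with an unstranded kit, and experiment B, done at passage 7 and sequenced with a kit that records the strand. The 8 groups held 3 wells each, except untreated H6 cells of experiment B with 2, which gave 23 libraries. A group is therefore made of wells of a single clone, and no cells lacking the construct were analysed here, so PARG and doxycycline itself cannot be told apart. The 4 comparisons, doxycycline against none in each clone and experiment, share no library. In bulk RNA a lower value from fewer cells of a kind and one from less RNA per cell cannot be told apart.

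Glycolysis splits glucose into pyruvate in the cytosol. Where oxygen is scarce, pyruvate is reduced to lactate in place of being burned in mitochondria. The HIF factors are heterodimers whose alpha subunit is hydroxylated by oxygen-dependent prolyl hydroxylases and then destroyed through the VHL ubiquitin ligase. In low oxygen the alpha subunit persists and raises glucose transporters, most glycolytic enzymes, a kinase that closes the mitochondrial route for pyruvate, mitophagy receptors and collagen-modifying enzymes. Because this control acts on the protein, the mRNA of an alpha subunit does not report the activity of the factor. PC-3 cells, like many tumour lines, ferment glucose to lactate also in air.

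All folds, q-values (adjusted p) and higher group means given here come from the authors' deposited table, which has no value per library. The level is the higher of the group means of a comparison in RPKM (read density per kilobase of exon, scaled to the size of the library), and the lower mean was computed as that level divided by the fold. No SD can be given, overlap between wells cannot be seen, and which spread stands behind a q-value is unknown, because the sources used here do not give the test. Directions rest on PARG, the induced gene, whose positive folds were taken to mean higher with doxycycline. The PARG folds in the authors' deposited table were 1.35 in experiment N and 1.40 in experiment B for I4, and 2.15 and 1.99 for H6. A gene is called changed at a q-value under 0.05. Judged by the commonest low level, taken as a single read, libraries held about 38.6 M reads in I4 and 36.3 M reads in H6 in experiment N. In I4 in experiment B they held about 22.5 M reads. The epithelial keratin genes KRT8 and KRT18, which PC-3 cells express, stood at 25.1 to 55.9 and 101 to 127 RPKM in the authors' deposited table and were called higher with doxycycline in all 4 comparisons. KLK3, the prostate-specific antigen gene, which PC-3 cells lack, stood at or below 0.00695 RPKM there. Of 9 fibroblast, endothelial and blood markers DCN, VWF, CDH5 and PTPRC stood at or below 0.0515 RPKM in the authors' deposited table, COL1A1 reached 17.7 and CD68 27.4 RPKM, and none was called in all 4. PECAM1, an endothelial marker of that list, was called lower in 3 comparisons, at no more than 1.34 RPKM. Its falls in the authors' deposited table were 1.42-fold in H6 N, 1.52-fold in I4 B and 1.56-fold in H6 B. In H6 N alone the authors' deposited table has LUM called higher, 2.34-fold at 0.634 RPKM, and COL1A1 lower, 1.16-fold. COL1A2 reached at most 0.314 RPKM in the authors' deposited table and was not called. The part of these markers in the results was not tested.

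In each comparison a minority of the members was called, nearly always higher, and the members that rose in all 4 were ALDOC, ENO2, PFKFB4, PDK1, BNIP3, P4HA1 and NDRG1. These are 7 of 40, against 1.73% of all 15063 genes tested in all 4 and 2.31% of the 10324 of at least 1 RPKM throughout. The members were chosen with earlier results of these data known, so these shares cannot say how such genes moved as a group. No member fell in all 4, where the background was 1.97% and 2.68% over the same genes. By comparison, 11 members rose and 2 fell in I4 in experiment N (background 7.18% higher, 8.53% lower). In H6 in experiment N 13 rose and 2 fell (6.57% higher, 7.07% lower). In experiment B 12 rose and 2 fell in I4 (7.46% higher, 6.59% lower), while 11 rose and none fell in H6 (3.63% higher, 3.93% lower). Where none fell, in H6 in experiment B, the most negative member of at least 1 RPKM was EPAS1, at a q-value of 0.0503 in the authors' deposited table. Across comparisons 19 members were never called, 6 were called once, 5 in 2 comparisons and 3 in 3, and no member was called in both directions. Of all 15063 genes 69.7% were never called, 15.0% were called once, 8.36% in 2 comparisons, 3.14% in 3 and 3.73% in all 4, in either direction. Beside the calls, 25 members had a positive fold in all 4 comparisons and 4 a negative one, against 21.6% and 20.8% of all 15063 genes.

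**Figure D1:**
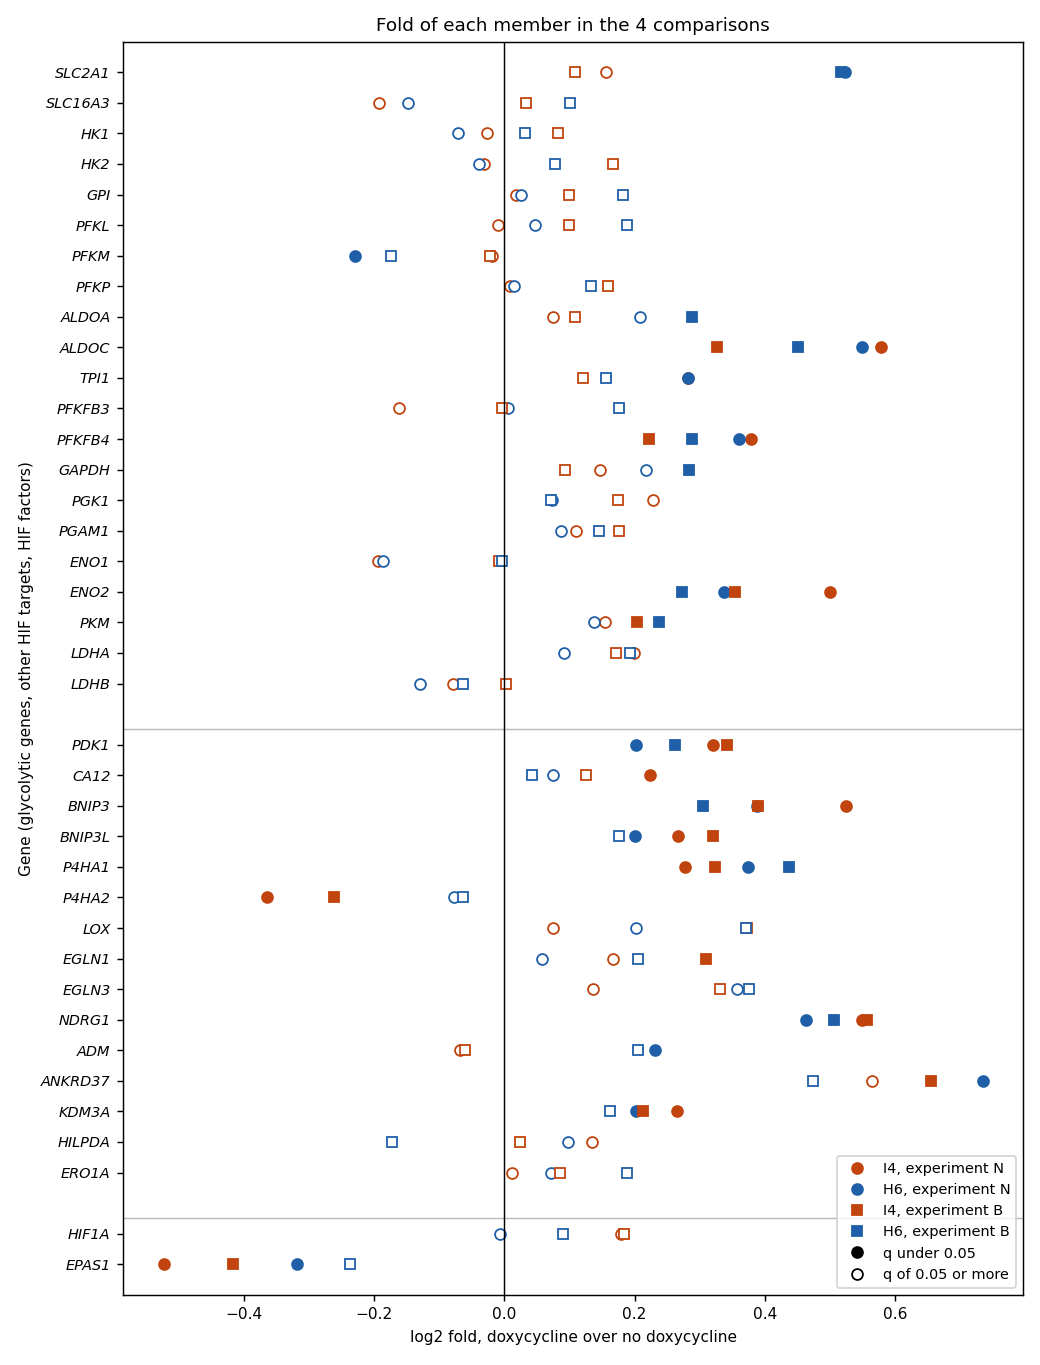
Log2 fold of doxycycline over no doxycycline for 38 members in the authors' deposited table; orange marks clone I4 and blue clone H6, circles experiment N and squares experiment B, and filled symbols a q-value under 0.05. SLC2A3 and CA9, with levels of at most 0.175 RPKM, are not drawn; ALDOC, PFKFB4, ENO2, PDK1, BNIP3, P4HA1 and NDRG1 are filled to the right of 0 in all 4 comparisons, and EPAS1 lies to the left of 0 in all 4.

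The 16 other HIF targets among the members had higher median folds than the 22 glycolytic genes in all 4 comparisons. Of the 22 glycolytic genes 4, 5, 4 and 7 rose in I4 N, H6 N, I4 B and H6 B, and the only one called lower was PFKM in H6 N. Of the 16 other HIF targets 7, 8, 8 and 4 rose in the same order, and P4HA2 fell in I4 in both experiments. Of all genes tested, 7.18%, 6.57%, 7.46% and 3.63% were called higher in that order, and 8.53%, 7.07%, 6.59% and 3.93% lower. H6 B, with 2 untreated wells, had the lowest shares, so its 4 calls do not show a smaller rise of these targets there. The median log2 fold of the other HIF targets was 0.20, 0.20, 0.32 and 0.23 in that order, against 0.08, 0.08, 0.11 and 0.17 for the glycolytic genes. With means in place of medians the order turned in I4 N, where the other HIF targets averaged 0.025 and the glycolytic genes 0.10; the mean there includes CA9, whose fold rests on almost no reads. Over the 10324 genes expressed at 1 RPKM or more the median was -0.01, -0.01, 0.00 and 0.01. The gap between the list medians was smallest in H6 B, where 4 of the 16 targets were called against 7 of the 22 glycolytic genes. Over members of at least 1 RPKM the H6 B medians lay closer still, at 0.205 for the other HIF targets and 0.176 for the glycolytic genes. The order holds for the listed members only. Over 32 further HIF targets, described below, the medians were 0.046, 0.038, 0.003 and 0.088 in I4 N, H6 N, I4 B and H6 B, below those of the glycolytic genes. That list was drawn up with some of its falls known. These are descriptions of lists chosen by name with earlier results of these data known, and no test was run between them.

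**Figure D2:**
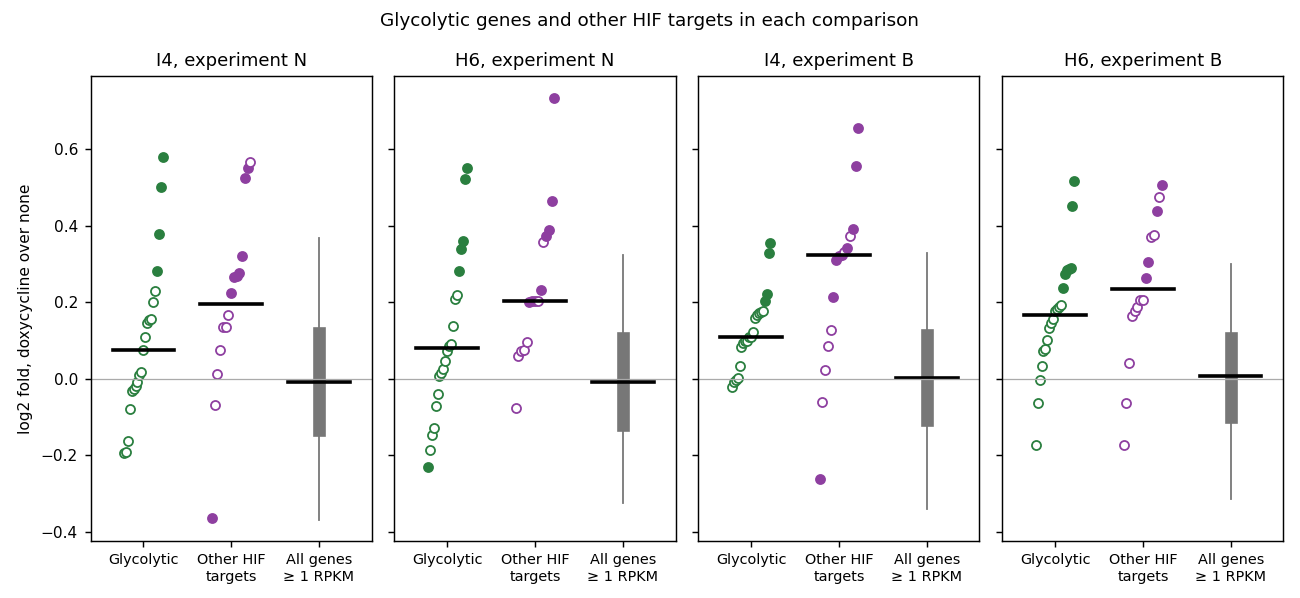
Log2 folds of the glycolytic genes (green) and the other HIF targets (purple) among the members in each comparison, with a black bar at the median of all measured members. Filled points have a q-value under 0.05, and SLC2A3 and CA9 count in the medians but are not drawn. The grey bar and line give the 25th to 75th and 5th to 95th percentiles of 10324 genes of at least 1 RPKM, and the purple medians (0.20 to 0.32) lie above the green ones (0.08 to 0.17) in every panel.

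The promoters of the members were searched for the core of the HIF response element, the letters ACGTG or GCGTG on either strand, in the 250 bases before each start in RefSeq (GRCh38.p14). Windows were found for 36 of the 40 members. Of 17 windows of other HIF targets 14 (82.4%) hold a match and of 46 windows of glycolytic genes 25 (54.3%), against 56.6% of 12152 windows of genes of at least 1 RPKM and 43.2% of all 35116 windows. Several genes have more than 1 window, and these can overlap, so the shares count windows and not genes. The 46 windows belong to 21 glycolytic genes and the 17 to 13 other HIF targets. HK1 and PFKM have many windows, most of them without a match. By gene, only SLC2A1, PGAM1, LDHB and PKM of the 21, and P4HA2 and EGLN3 of the 13, have no match in any window. The gap between the window shares is therefore not a gap between genes. The palindrome CACGTG counts as a match on each strand. The windows of 5 genes that rose in all 4 comparisons and have a single start are shown with that of ENO1, the enolase that was not called, with matches in capitals (CACGT and CACGC are the motifs read on the other strand).
ENO2, chr12:6914330-6914579, plus strand, 1 match: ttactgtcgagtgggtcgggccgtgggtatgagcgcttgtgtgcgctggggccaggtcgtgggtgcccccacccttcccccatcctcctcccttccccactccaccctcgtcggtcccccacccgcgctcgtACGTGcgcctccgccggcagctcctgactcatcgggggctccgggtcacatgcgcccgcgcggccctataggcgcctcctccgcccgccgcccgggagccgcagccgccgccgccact
ENO1, chr1:8878687-8878936, minus strand, 2 matches: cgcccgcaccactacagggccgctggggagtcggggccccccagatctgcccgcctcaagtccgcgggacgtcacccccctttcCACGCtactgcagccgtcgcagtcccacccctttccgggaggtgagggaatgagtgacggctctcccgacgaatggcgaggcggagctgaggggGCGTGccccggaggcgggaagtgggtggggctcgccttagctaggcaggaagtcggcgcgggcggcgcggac
ALDOC, chr17:28576896-28577145, minus strand, 5 matches: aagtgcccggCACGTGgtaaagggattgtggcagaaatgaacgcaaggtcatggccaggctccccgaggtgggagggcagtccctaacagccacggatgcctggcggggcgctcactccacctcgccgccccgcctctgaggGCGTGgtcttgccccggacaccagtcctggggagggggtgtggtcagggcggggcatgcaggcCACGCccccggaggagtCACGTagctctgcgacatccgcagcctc
PFKFB4, chr3:48556804-48557053, minus strand, 1 match: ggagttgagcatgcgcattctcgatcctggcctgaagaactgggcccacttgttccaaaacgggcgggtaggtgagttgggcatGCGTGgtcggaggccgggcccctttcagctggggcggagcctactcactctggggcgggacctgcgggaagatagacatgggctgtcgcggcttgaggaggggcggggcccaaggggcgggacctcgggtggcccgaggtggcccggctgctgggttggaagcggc
BNIP3, chr10:131981924-131982173, minus strand, 6 matches: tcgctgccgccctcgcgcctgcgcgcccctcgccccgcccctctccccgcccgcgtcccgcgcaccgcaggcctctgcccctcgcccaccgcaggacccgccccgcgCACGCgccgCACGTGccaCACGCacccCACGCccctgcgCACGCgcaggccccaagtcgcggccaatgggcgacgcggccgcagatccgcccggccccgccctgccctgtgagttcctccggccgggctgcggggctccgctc
P4HA1, chr10:73096867-73097116, minus strand, 1 match: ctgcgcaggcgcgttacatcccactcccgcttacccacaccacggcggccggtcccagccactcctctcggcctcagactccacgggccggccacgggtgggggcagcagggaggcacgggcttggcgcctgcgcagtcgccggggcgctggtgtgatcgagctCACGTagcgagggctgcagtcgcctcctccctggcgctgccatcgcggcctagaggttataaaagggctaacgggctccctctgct
The match in ENO2 is ACGTG, the 6 matches of BNIP3 include a CACGTG, and ENO1, which was not called, holds more matches than ENO2. No match says only that these letters are not in the window, as in SLC2A1, whose single window has none. A match does not show that a factor binds there.

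Glucose enters through SLC2A1 (GLUT1), and this transporter was called in H6 and not in I4. In I4 cells SLC2A1 stood at 38.8 RPKM in experiment N and 26.4 RPKM in experiment B with doxycycline, against 34.8 and 24.5 RPKM without it. In H6 cells it stood at 35.5 and 26.7 RPKM with doxycycline against 24.7 and 18.6 RPKM without it. Per the authors' deposited table its folds of 1.11 (q = 0.128) and 1.08 (q = 0.482) in I4 did not pass, whereas it rose 1.44-fold (q = 2.54e-12) and 1.43-fold (q = 1.20e-08) in H6. The I4 mean log2 fold minus that of H6 was -0.39, while the experiments of a clone differed by at most 0.05. This difference between clones was not tested. SLC2A3 (GLUT3), the neuronal-type transporter, was listed at 0 in both I4 comparisons and reached at most 0.00707 RPKM in H6. SLC16A3 (MCT4), which exports lactate, was not called in any comparison, and the authors' deposited table gives it at folds of 1.14 and 1.11 lower in experiment N and 1.02 and 1.07 higher in experiment B for I4 and H6.

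The upper enzymes, which trap glucose and prepare it for cleavage, were mostly not called. HK1 and HK2, the hexokinases that trap glucose in the cell, lay between -0.07 and 0.17 in log2 fold and had no call in 4 comparisons. The same held for GPI, the isomerase that follows, and for PFKL and PFKP, the liver-type and platelet-type phosphofructokinases, with log2 folds of -0.01 to 0.19. PFKM, the muscle-type subunit, had negative folds in all 4 comparisons and fell 1.17-fold in H6 in experiment N alone (q = 0.0132, the authors' deposited table). TPI1, triosephosphate isomerase, rose 1.22-fold in both clones in experiment N (q = 0.0408 in I4 and 0.0456 in H6, the authors' deposited table), with folds of 1.09 and 1.11 that did not pass in experiment B.

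The aldolases showed the larger change in the scarcer isoenzyme, ALDOC. ALDOC, the brain-type aldolase, stood at 9.63 and 8.54 RPKM with doxycycline against 6.45 and 6.80 RPKM without it in I4, in experiments N and B. In H6 it stood at 13.2 and 13.1 RPKM with doxycycline against 9.00 and 9.61 RPKM without it. Per the authors' deposited table ALDOC rose 1.49-fold (q = 7.86e-12) and 1.25-fold (q = 0.00227) in I4, and 1.46-fold (q = 1.82e-11) and 1.37-fold (q = 0.00706) in H6. ALDOA, the main aldolase of most tissues, was 34.7 to 52.1 times as abundant per kilobase. It rose in H6 in experiment B alone, 1.22-fold with q = 0.00363 in the authors' deposited table, and its other folds lay between 1.05 and 1.16.

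Of the enolases, too, the scarcer one rose, while the abundant one had negative folds that did not pass. ENO2, the neuron-type enolase, stood at 33.5 and 30.8 RPKM with doxycycline against 23.7 and 24.1 RPKM without it in I4, and at 41.7 and 42.2 RPKM with doxycycline against 33.0 and 34.9 RPKM without it in H6. It rose 1.41-fold (q = 2.80e-11) and 1.28-fold (q = 1.87e-05) in I4, and 1.26-fold (q = 2.89e-05) and 1.21-fold (q = 0.0119) in H6, in the authors' deposited table, with experiment N given first. ENO1, the ubiquitous enolase at 1147 to 1405 RPKM in the authors' deposited table, was not called in any comparison, and its log2 folds ran from -0.19 to -0.004. The log2 fold of ENO2 exceeded that of ENO1 by 0.69, 0.52, 0.36 and 0.28 in I4 N, H6 N, I4 B and H6 B. For ALDOC over ALDOA the excess was 0.50, 0.34, 0.22 and 0.16 in the same order, so both gaps were smaller in experiment B.

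PFKFB3 and PFKFB4 make and break fructose 2,6-bisphosphate, the activator of phosphofructokinase. PFKFB4 stood at 17.7 and 16.7 RPKM with doxycycline against 13.6 and 14.3 RPKM without it in I4, and at 10.8 and 11.4 RPKM with doxycycline against 8.40 and 9.30 RPKM without it in H6. Its rises in the authors' deposited table were 1.30-fold (q = 2.33e-06) and 1.17-fold (q = 0.0260) in I4 and 1.28-fold (q = 2.64e-05) and 1.22-fold (q = 0.0175) in H6. PFKFB3 stood at a like level, 11.1 to 17.5 RPKM in the authors' deposited table, and was called in no comparison. Its log2 folds ran from -0.16 in I4 N to 0.18 in H6 B.

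Apart from the enolases, the lower enzymes and lactate dehydrogenase A had small positive folds that seldom passed. GAPDH, at 1434 to 2043 RPKM in the authors' deposited table, rose in H6 in experiment B alone, by 1.22-fold (q = 0.00400), with folds of 1.07 to 1.16 elsewhere. PKM, pyruvate kinase, rose in experiment B, by 1.15-fold in I4 (q = 0.0239) and 1.18-fold in H6 (q = 0.0279), against uncalled folds of 1.11 and 1.10 in experiment N of the authors' deposited table. PGK1, PGAM1 and LDHA, the last of which makes lactate from pyruvate, had positive folds in all 4 comparisons and no call, with log2 folds of 0.07 to 0.23. LDHB, the subunit that favours lactate use, lay between -0.13 and 0.002 and was not called.

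How readily a fold of this size passed differed with level in experiment N. Among all genes with an absolute log2 fold of 0.2 to 0.3, the share called at levels of 200 RPKM or more was 37.9% of 29 genes in I4 and 29.4% of 34 genes in H6, against 76.5% of 665 and 86.8% of 599 genes at 10 to 100 RPKM. In experiment B all 6 such genes of 200 RPKM or more in I4 and 61.5% of 13 in H6 were called, against 90.1% of 507 and 41.3% of 441 genes at 10 to 100 RPKM. The glycolytic members TPI1, GAPDH, PGK1, PGAM1, ENO1, PKM, LDHA and ALDOA lie above 200 RPKM. Of these only TPI1 was called in experiment N, and the missing calls of the others there do not show that they did not change; many of their folds were smaller than this band. GAPDH and PGAM1 also have 62 and 13 pseudogenes named after them in the annotation and BNIP3 39, and the sources used here do not say how reads shared with such copies were counted.

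**Figure D3:**
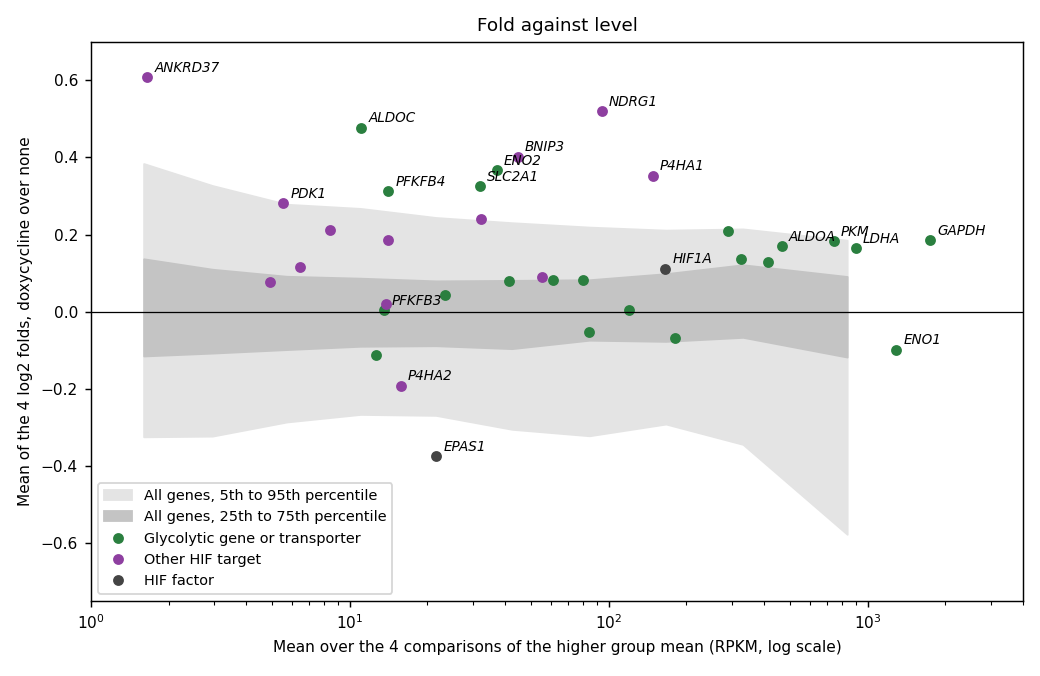
Mean of the 4 log2 folds against the mean level (RPKM, log scale) of 36 members of at least 1 RPKM in every comparison, computed from the authors' deposited table; shading gives percentiles of 10324 genes in 10 bins of level. ANKRD37, NDRG1, ALDOC, BNIP3, ENO2, P4HA1, SLC2A1 and PFKFB4 lie above the 95th percentile of genes of their level, PDK1, BNIP3L and GAPDH just above it, and EPAS1 below the 5th, while ENO1 at the right lies under 0 and the other glycolytic genes above 200 RPKM lie between 0.13 and 0.21.

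The burning of pyruvate in mitochondria is held back by PDK1, a kinase that switches off pyruvate dehydrogenase. PDK1 stood at 6.14 and 7.24 RPKM with doxycycline against 4.91 and 5.72 RPKM without it in I4, and at 4.24 and 4.56 RPKM with doxycycline against 3.68 and 3.80 RPKM without it in H6. Its rises in the authors' deposited table were 1.25-fold (q = 9.00e-05) and 1.27-fold (q = 4.16e-05) in I4 and 1.15-fold (q = 0.0392) and 1.20-fold (q = 0.0298) in H6. None of 11 other genes of the pyruvate dehydrogenase complex, its kinases and phosphatases was called in all 4 (background 1.73% higher, 1.97% lower). Called more than once were PDK4, higher in 3 comparisons at no more than 1.18 RPKM, and DLAT and PDPR, lower in H6 in both experiments. PDPR, the regulatory subunit of the phosphatase, fell by 1.16-fold (q = 0.0207) and 1.18-fold (q = 0.0446) in the authors' deposited table. DLAT, a core subunit, fell by 1.23-fold (q = 0.000526) and 1.19-fold (q = 0.0319) in the authors' deposited table.

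Both mitophagy receptors of the set rose. BNIP3 stood at 53.3 and 46.4 RPKM with doxycycline against 37.1 and 35.4 RPKM without it in I4, and at 41.6 and 37.1 RPKM with doxycycline against 31.8 and 30.0 RPKM without it in H6. Per the authors' deposited table it rose 1.44-fold (q = 5.04e-13) and 1.31-fold (q = 4.76e-07) in I4, and 1.31-fold (q = 5.49e-07) and 1.24-fold (q = 0.00267) in H6. Its relative BNIP3L rose 1.20-fold and 1.25-fold in I4 and 1.15-fold in H6 in experiment N, and its fold of 1.13 in H6 in experiment B did not pass (q = 0.218, the authors' deposited table).

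The catalytic subunits of collagen prolyl 4-hydroxylase, the enzyme that stabilises the collagen helix, had folds of opposite sign in all 4 comparisons. P4HA1 stood at 122 and 160 RPKM with doxycycline against 101 and 127 RPKM without it in I4, and at 142 and 170 RPKM with doxycycline against 109 and 126 RPKM without it in H6. It rose 1.21-fold (q = 0.000652) and 1.25-fold (q = 4.14e-05) in I4, and 1.30-fold (q = 1.14e-06) and 1.35-fold (q = 5.59e-07) in H6, in the authors' deposited table, with experiment N given first. P4HA2, the subunit of lower level, stood at 11.8 and 13.3 RPKM with doxycycline against 15.2 and 15.9 RPKM without it in I4, where it fell 1.29-fold (q = 6.66e-06) and 1.20-fold (q = 0.00480) in the authors' deposited table. In H6 it stood at 14.1 and 16.3 RPKM with doxycycline against 14.9 and 17.1 RPKM without it, and was not called. LOX, which cross-links collagen, stood near 1 RPKM and was not called.

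NDRG1, a growth-restraining gene that low oxygen and iron loss induce, rose by similar factors in both clones from unequal levels. In I4 NDRG1 stood at 136 and 114 RPKM with doxycycline against 92.9 and 77.4 RPKM without it. In H6 it stood at 66.6 and 59.7 RPKM with doxycycline against 48.3 and 42.0 RPKM without it. The rises in the authors' deposited table were 1.46-fold (q = 1.59e-06) and 1.47-fold (q = 1.18e-14) in I4 and 1.38-fold (q = 4.43e-10) and 1.42-fold (q = 4.13e-09) in H6. The untreated level in I4 was 1.92 and 1.84 times that in H6 in experiments N and B, so untreated I4 cells stood above doxycycline-treated H6 cells in both.

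The remaining targets were called in some comparisons. KDM3A, a histone H3 lysine 9 demethylase, rose 1.20-fold and 1.16-fold in I4 and 1.15-fold in H6 in experiment N in the authors' deposited table, and its fold of 1.12 in H6 B did not pass (q = 0.327). ANKRD37 had the largest mean log2 fold of the members of at least 1 RPKM, 0.61, at 1.28 to 1.96 RPKM. It rose 1.66-fold in H6 N (q = 0.0185) and 1.57-fold in I4 B (q = 0.0349) in the authors' deposited table, while folds of 1.48 in I4 N (q = 0.0518) and 1.39 in H6 B (q = 0.538) did not pass. Exons of UFSP2 on the other strand cover 35.2% of the exon bases of ANKRD37, and the libraries of experiment N do not separate strands. EGLN1, the main HIF prolyl hydroxylase, rose in I4 in experiment B alone, 1.24-fold (q = 0.000288, the authors' deposited table), and EGLN3, its inducible relative, had positive folds in all 4 with no call at 0.733 RPKM or less. ADM, a vasodilator peptide, rose in H6 in experiment N alone (1.17-fold, q = 0.0389, the authors' deposited table). CA12, a membrane carbonic anhydrase, rose in I4 in experiment N alone (1.17-fold, q = 0.0208, the authors' deposited table). HILPDA, a lipid droplet protein, and ERO1A, an oxidase of the endoplasmic reticulum, were not called. CA9, the carbonic anhydrase often used as a marker of hypoxia, reached at most 0.175 RPKM in the authors' deposited table and was not called.

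**Figure D4:**
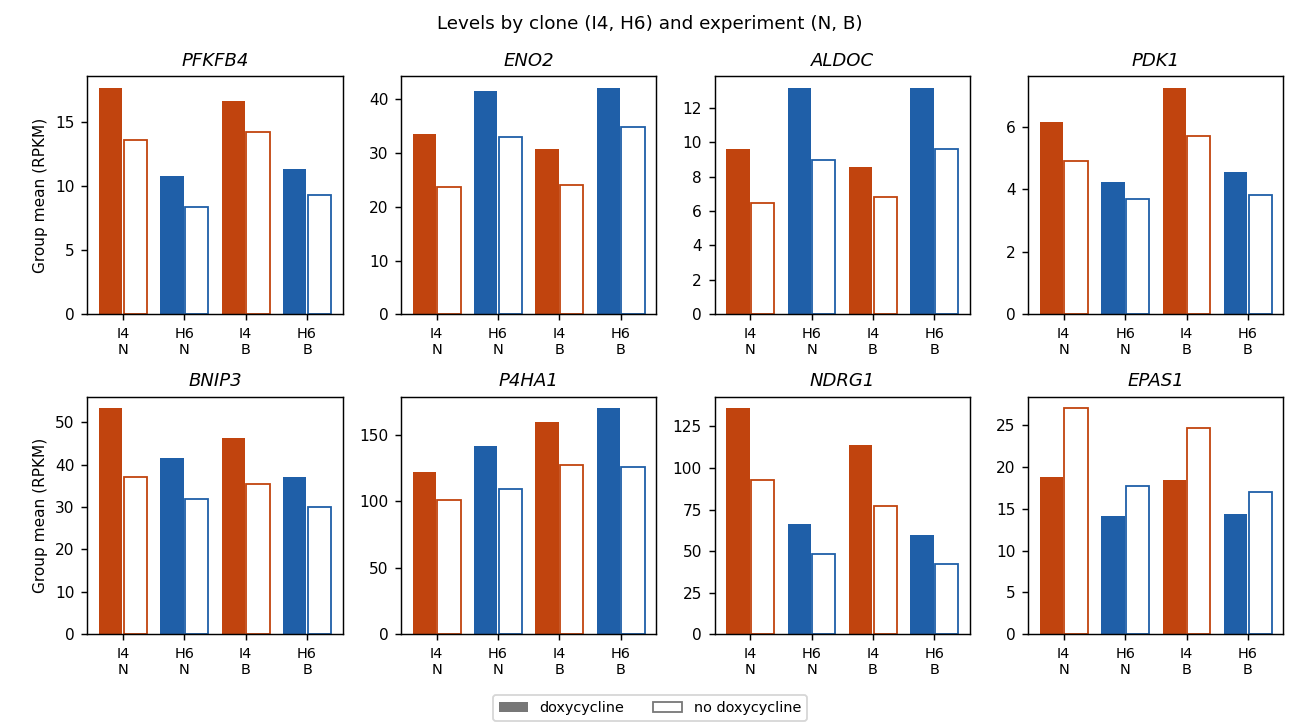
Group means in RPKM with doxycycline (filled bars, left) and without it (open bars, right) for 7 genes that rose in all 4 comparisons and for EPAS1, by clone and experiment. The higher mean of each pair is from the authors' deposited table and the lower one was computed from it and the fold; no error bars can be drawn without values per library, and the filled bar is the taller of each pair for every gene but EPAS1.

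The mRNA of HIF1A, the widely expressed HIF alpha subunit, was not called in any comparison. It stood at 131 and 167 RPKM with doxycycline against 116 and 147 RPKM without it in I4, and at 164 and 198 RPKM with doxycycline against 165 and 186 RPKM without it in H6. Its folds in the authors' deposited table were 1.13 (q = 0.307) and 1.14 (q = 0.0543) higher in I4 and 1.06 higher in H6 B (q = 0.786), with a log2 fold of -0.006 in H6 N. EPAS1 (HIF-2 alpha), the paralogue with a narrower range of tissues, was lower in each comparison. It stood at 18.8 and 18.5 RPKM with doxycycline against 27.0 and 24.7 RPKM without it in I4, and at 14.2 and 14.4 RPKM with doxycycline against 17.7 and 17.0 RPKM without it in H6. Per the authors' deposited table EPAS1 fell 1.44-fold (q = 1.66e-12) and 1.34-fold (q = 1.27e-07) in I4 and 1.25-fold (q = 0.000131) in H6 N, while its 1.18-fold lower value in H6 B missed the threshold (q = 0.0503).

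Among members of at least 1 RPKM the clones differed most in SLC2A1, ADM, P4HA2, EPAS1 and PFKM. The I4 mean log2 fold minus that of H6 was -0.39 for SLC2A1, -0.28 for ADM, -0.24 for P4HA2, -0.19 for EPAS1 and 0.18 for PFKM, while experiments of the same clone differed by 0.0023 to 0.11 for these genes. Over the glycolytic genes the median absolute difference between clones was 0.04 in experiment N and 0.08 in experiment B, against 0.11 in I4 and 0.10 in H6 between experiments. Over the other HIF targets of at least 1 RPKM it was 0.11 and 0.10 between clones, against 0.07 and 0.06 between experiments. Over all 10324 genes the same medians were 0.09 and 0.09 between clones and 0.10 and 0.08 between experiments. The glycolytic folds therefore differed more between experiments than between clones, and the other HIF targets the reverse; neither ordering was tested.

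**Figure D5:**
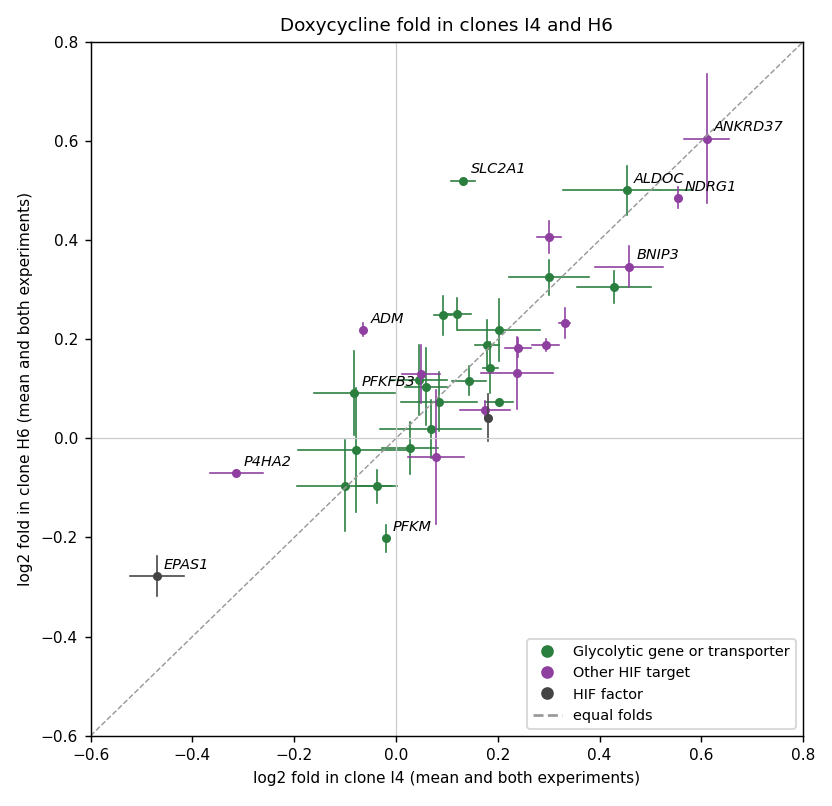
Log2 fold in clone I4 (x axis) against clone H6 (y axis) for 36 members of at least 1 RPKM; points are means of the 2 experiments and the lines end at the value of each experiment, so they show the difference between experiments and not a standard error. SLC2A1 and ADM lie above the line of equal folds and PFKM below it, and ALDOC, BNIP3, NDRG1 and ANKRD37 lie near it at the upper right.

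Other genes of these pathways, taken from lists by name, set the members in context. Of 30 further glycolysis genes, 24 were tested in all 4 comparisons. None fell in all 4 (background 1.97% lower), which a list this small can show. In all 4 comparisons 2 rose (background 1.73% higher). They are the sugar transporters SLC2A10, 1.25-fold to 1.28-fold higher, and SLC2A12, 1.74-fold to 4.75-fold higher at no more than 0.731 RPKM, in the authors' deposited table. SLC2A6, another transporter of the family, fell in 3 comparisons, by 1.19-fold in H6 N (q = 0.0263) to 1.67-fold in I4 B (q = 1.18e-05) in the authors' deposited table, and was 1.22-fold lower with q = 0.359 in H6 B. PFKFB2, a relative of PFKFB3, fell in experiment N, by 1.15-fold in I4 and 1.16-fold in H6 in the authors' deposited table. None of 7 pentose phosphate genes and none of 15 HIF regulators, of which 14 were tested in all 4, was called throughout. At those background shares lists this small can hold none, so the absence does not set them apart. Of the regulators, VHL, the receptor that marks HIF alpha for destruction, fell in 3 comparisons and was 1.14-fold lower with q = 0.201 in H6 B of the authors' deposited table. CITED2, an inhibitor of HIF that HIF itself induces, rose in 3 comparisons and was 1.17-fold higher with q = 0.454 in H6 B of the authors' deposited table.

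Of 32 further HIF targets, 5 rose and 5 fell in all 4 comparisons (background 1.73% higher, 1.97% lower). Those that rose were RAB20 (1.43-fold to 1.62-fold), AK4, a mitochondrial adenylate kinase (1.19-fold to 1.32-fold), FAM162A (1.19-fold to 1.29-fold), MXI1, a MYC antagonist (1.17-fold to 1.25-fold), and the demethylase gene KDM4B (1.15-fold to 1.25-fold), all in the authors' deposited table. Among those that fell were IGFBP3 (1.71-fold to 2.98-fold), VEGFA (1.45-fold to 1.85-fold), BHLHE40 (1.40-fold to 1.48-fold) and TFRC (1.17-fold to 1.44-fold), also in the authors' deposited table. In 3 comparisons DDIT4, STC1 and PLOD2 were called lower and ANGPTL4 and VLDLR higher. The median of the mean log2 folds over the 32 genes was 0.08, against 0.25 over the 16 other HIF targets among the members. The list of further targets was drawn up with the falls of VEGFA, IGFBP3 and BHLHE40 known. Its counts and its median therefore cannot say how HIF targets moved as a group.

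The genes called in all 4 comparisons and EPAS1 are protein-coding in GENCODE 29 on GRCh38. ENO2 (ENSG00000111674) spans 6913745 to 6923698 on the plus strand of chromosome 12, and ALDOC (ENSG00000109107) 28573115 to 28577264 on the minus strand of chromosome 17. PFKFB4 (ENSG00000114268) spans 48517684 to 48562015 on the minus strand of chromosome 3, and PDK1 (ENSG00000152256) 172555373 to 172608669 on the plus strand of chromosome 2. BNIP3 (ENSG00000176171) and P4HA1 (ENSG00000122884) lie on the minus strand of chromosome 10, at 131966455 to 131982013 and 73007217 to 73096974. NDRG1 (ENSG00000104419) spans 133237171 to 133302022 on the minus strand of chromosome 8. EPAS1 (ENSG00000116016) spans 46293667 to 46386703 on the plus strand of chromosome 2. Exons of another gene on the opposite strand overlap 10.1% of the exon bases of ALDOC, 2.99% of those of PDK1 and 1.52% of those of P4HA1, and none of those of ENO2, PFKFB4, BNIP3, NDRG1 or EPAS1.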

How the data were processed

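Poly(A)-selected RNA from single wells of PC-3 clones was sequenced, per the labels' protocols, and groups were formed from the clone, experiment and doxycycline in the labels. The genome build was hg38, per the submitters' processing notes. The sources used here do not give the aligner, counter, annotation or statistical test. The level deposited by the authors is the larger of both group means, and its RPKM unit was read from the values, since the file names none. The columns sum to 283580 to 301832. Depth was estimated from the commonest low level multiplied by exon length, taken as a single read in a single library of a group. The deposited fold is a signed ratio, never between -1 and 1, whose direction was read from PARG. The deposited q-value is an adjusted p-value by a method that is not given.

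Folds were turned into log2 values, and a gene was called at a q-value under 0.05. Without values per library no further test was run, and groups of genes are described by counts and medians beside all genes. The counting was tested on simulated data with q-values set in advance, which checks the arithmetic and not how well calls hold under noise. Members and lists were chosen with earlier results of these data known. Members called in all 4 comparisons, HIF1A and EPAS1 are given with all their values, and others by role. Pathway genes called in all 4 are named, except 1 that is not reported here, and others that are named, called in 2 or 3 comparisons, were chosen after their values were seen. Alternatives were a q-value under 0.01, an absolute log2 fold of at least 0.2, a level of at least 1 RPKM, single experiments or clones, centred folds, means and PDK1 counted as glycolytic. Genes were matched to GENCODE 29, and promoters to RefSeq. Python 3.11.15 with pandas 2.3.3 was used.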

Additional observations from a re-analysis of the deposited data

Results flagged for a closer look

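In 2 members both experiments of clone I4 had a negative fold and both of clone H6 a positive one. For ADM the mean log2 fold was -0.06 in I4 and 0.22 in H6, a difference of -0.28, with a call in H6 in experiment N alone. For PFKFB3 it was -0.08 in I4 and 0.09 in H6, a difference of -0.17, with no call. Its log2 folds of -0.0028 in I4 in experiment B and 0.0059 in H6 in experiment N were close to 0, and experiments of the same clone differed by 0.16 and 0.17. Neither difference was tested.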

How the results depend on the processing

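No paired analysis was possible because the authors' deposited table holds no value per library, so leaving out a replicate, a replicate block and other count tests were not run. At a q-value under 0.01, 4 in place of 7 members rose in all 4 comparisons, of which 1 in place of 3 was glycolytic; in experiment N of H6, 7 rose and 1 fell, and in experiment B of H6 7 rose. A call in both experiments or both clones gave 2 members lower in clone I4 alone and 1 in experiment N alone, against 0 in all 4; of the other HIF targets 1, P4HA2, was lower in I4 alone. The remaining counts stayed within 1.5 times. The mean in place of the median log2 fold moved 4 of 8 values, through SLC2A3 and CA9, whose folds rest on almost no reads: the glycolytic genes to 0.25 in experiment N and 0.053 in experiment B of H6, and the other HIF targets to 0.025 in I4 and 0.33 in H6 in experiment N. In I4 in experiment N this put the other HIF targets below the glycolytic genes (0.10), the reverse of the medians. A floor of 1 RPKM moved the other HIF targets in I4 in experiment N to 0.27. In H6 in experiment B that floor brought the medians closer, to 0.205 for the other HIF targets and 0.176 for the glycolytic genes. No median changed sign when centred on all genes, and none moved by more than the SD over the 4 comparisons with PDK1 counted as glycolytic. Genes under 1 RPKM are limited by depth.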
